A study of Mus musculus with 2 samples.

Results

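Levels of 36 immediate early and heat shock genes were compared between immune cells of the metastatic niche and immune cells of the distal lung in mice with lung metastases. The 36 genes are a list by name, 26 immediate early genes and 10 heat shock genes, matched between the libraries by Ensembl identifier among 29413 shared genes. All 36 had 20 or more UMIs (unique molecular identifiers, the tags by which copies of 1 RNA molecule are counted once) over the kept cells, from 144 for Egr3 to 107699 for Hspa8, and 13022 shared genes in all reached that minimum. For the niche group there was 1 library, and for the distal group also 1. Both came from female Balb/c mice whose lungs were taken 7 days after labelling-4T1 cells, cells of a mouse breast cancer line, had been given intravenously, so both groups carry metastases and neither is a tumour-free lung. Lungs were dissociated and cells sorted by flow cytometry before droplet-based 3′ sequencing. How many animals were pooled, and how cells were gated as niche or distal, the labels do not say.

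Immediate early genes are transcribed within minutes of a stimulus without new protein synthesis. They encode short-lived transcription factors such as the AP-1 proteins Fos and Jun, and inhibitors that switch the response off again, such as the phosphatase Dusp1 and the mRNA-decay factor Zfp36. Heat shock genes encode chaperones that fold proteins. Some, such as Hspa1a and Hspa1b, are nearly silent until heat shock factor 1 is activated, whereas others, such as Hspa8 and Hsp90ab1, are present in every cell. Enzymatic digestion of tissue is known to induce members of both families, so a change in such genes can be made before or after the tissue is taken apart. The labels describe the same dissociation for both groups, and its part in the values was not tested.

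For a view of the DNA in front of these genes, 29 members, 22 immediate early and 7 heat shock, were matched to promoter windows of 300 bases (250 before to 50 after the start site) in RefSeq on GRCm38.p6. No window was at hand for Egr1, Egr3, Ier2, Myc, Hspa8, Hsp90aa1 and Hsp90ab1, so no motif was searched in these genes. Sites outside the windows were not searched in any member. The windows below belong to Fos (chr12:85473640-85473939, plus strand), Dusp1 (chr17:26508423-26508722, minus strand), Nr4a1 (chr15:101266596-101266895, plus strand), Hspa1a (chr17:34972107-34972406, minus strand) and Hspd1 (chr1:55087883-55088182, minus strand). They are shown because these genes carry the differences described later. Each runs 5′ to 3′ in the direction of the gene, and capitals mark matches, on either strand, to the motifs searched.
Fos: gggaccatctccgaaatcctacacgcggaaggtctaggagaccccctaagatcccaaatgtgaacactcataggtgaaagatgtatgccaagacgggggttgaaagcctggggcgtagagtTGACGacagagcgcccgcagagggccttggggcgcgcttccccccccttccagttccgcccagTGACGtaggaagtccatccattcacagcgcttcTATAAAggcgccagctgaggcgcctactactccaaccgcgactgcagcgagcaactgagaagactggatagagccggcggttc
Dusp1: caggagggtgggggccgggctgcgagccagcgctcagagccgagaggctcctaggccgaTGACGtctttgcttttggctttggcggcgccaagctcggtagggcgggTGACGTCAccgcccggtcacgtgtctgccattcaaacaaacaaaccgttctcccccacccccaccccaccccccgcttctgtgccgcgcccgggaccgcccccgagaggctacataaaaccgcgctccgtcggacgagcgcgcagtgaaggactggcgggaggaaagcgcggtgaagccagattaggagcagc
Nr4a1: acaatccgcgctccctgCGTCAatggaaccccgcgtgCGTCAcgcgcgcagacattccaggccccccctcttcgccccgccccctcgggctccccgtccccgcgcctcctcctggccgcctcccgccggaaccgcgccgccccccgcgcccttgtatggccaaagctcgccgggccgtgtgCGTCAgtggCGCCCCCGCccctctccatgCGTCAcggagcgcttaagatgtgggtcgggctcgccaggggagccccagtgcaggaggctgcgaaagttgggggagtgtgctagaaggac
Hspa1a: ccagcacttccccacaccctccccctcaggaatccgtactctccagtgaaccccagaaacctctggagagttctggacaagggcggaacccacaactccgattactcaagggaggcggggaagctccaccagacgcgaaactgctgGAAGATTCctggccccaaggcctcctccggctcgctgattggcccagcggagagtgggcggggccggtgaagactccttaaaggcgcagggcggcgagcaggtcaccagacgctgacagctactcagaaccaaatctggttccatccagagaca
Hspd1: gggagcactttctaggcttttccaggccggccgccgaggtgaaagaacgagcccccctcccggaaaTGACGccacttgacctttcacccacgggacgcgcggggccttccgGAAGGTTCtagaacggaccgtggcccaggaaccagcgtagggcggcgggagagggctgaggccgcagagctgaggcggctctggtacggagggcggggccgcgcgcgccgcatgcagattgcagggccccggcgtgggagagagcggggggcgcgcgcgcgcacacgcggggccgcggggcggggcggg

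The heat shock element GAANNTTC, the core that heat shock factor 1 binds, was found in the windows of 6 of 7 heat shock members and in 2 of 22 immediate early members, Fosl2 and Jun, against 7.89% of all 32544 windows. The core TGACG of the cAMP response element was found in 15 of 22 immediate early members, in 4 of 7 heat shock members and in 20.9% of all windows. The whole element TGACGTCA, which contains that core, stood in Btg2, Dusp1 and Maff, against 1.80% of all windows. A CArG box, the site of serum response factor, was matched in Egr2 and Zfp36 and in 1.64% of all windows. The EGR motif GCGGGGGCG was in 7 of 22 immediate early members, in 1 heat shock member, Dnaja1, and in 2.93% of all windows. The TATA box letters TATAAA were in 4 of 22 immediate early members, in 0 heat shock members and in 13.6% of all windows. Counted from the start site, they began at −33 in Fos, −26 in Btg1 and 0 in Junb, and at −164 on the opposite strand in Nr4a2. The AP-1 motif TGANTCA was in 0 members and 7.79% of all windows. All motifs were searched on both strands, and a member counted where at least 1 of its windows held the letters. The windows of Hspa1a and Hspa1b differ at 4 of 300 bases, and a window of Hspd1 shares 285 bases with that of Hspe1, which lies head to head with it. The heat shock element and the TGACG core of Hspd1 and Hspe1 are the same sites, counted for both genes. The counts of members are therefore not counts of separate sites, and the shares of all windows are per window, not per gene.

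Depth differed between the libraries, with 38036915 UMIs over 3242 barcodes in the niche (median 10740.5) and 22323465 UMIs over 3945 barcodes in the distal library (median 5272). After filtering, 3080 niche and 3536 distal cells remained. The libraries shared 4 cell barcodes. Cells were clustered without the members and named from marker genes, and 9 classes had 30 or more cells in each library. Although both libraries are labelled immune cells, 33 niche and 123 distal cells formed a non-immune cluster led by Sftpc, Sftpb and Cldn5, genes of alveolar epithelium and endothelium. Levels are CPM, a gene's share of all UMIs of the class on the usual CPM scale, and each niche over distal ratio is on the log2 scale with a 95% interval. Intervals cover counting error only, since the single library of each group leaves no replicate check, and no p-value was computed. RNA that floats free in droplets adds UMIs to cells that do not express a gene. A member with 20 or more UMIs in a class was called higher or lower where its ratio was past 1.5-fold and its interval left out 0. Reads of these 3′ libraries that also fit near-identical copies make some levels uncertain. Over the last 500 bases, 68.6% of short sequence words of Hspa8, 53.2% of Hspe1, 39.1% of Dnaja1, 29.8% of Hspd1 and 24.7% of Hsp90aa1 occur in other genes, against 0% for Fos, Hspa1a, Hspa1b and most other members.

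In monocyte/macrophage-like cells, the largest class of the niche library with 1720 niche and 280 distal cells, immediate early genes were on the whole lower in the niche and heat shock genes were split. The median log2 ratio of the 26 immediate early members was −0.43, with 21 below 0. That of the 10 heat shock members was 0.06, with 5 on each side, and that of all 10830 genes measured in the class was −0.01, with 51.1% below 0. Called lower were 8 members, Fosb, Jun, Egr1, Klf2, Klf4, Dusp1, Hspa1a and Hspa1b, against 4.91% of all genes. Called higher were 4 members, Egr2, Egr3, Hspd1 and Hsph1, against 4.1% of all genes. The other 24 members had ratios between −0.58 (Fosl2) and 0.31 (Hsp90ab1).

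Among the AP-1 family, whose proteins pair to bind DNA, 7 of 8 members lay below 0. Fos reached 1164 CPM in niche cells and 1648 CPM in distal cells (log2 ratio −0.50, interval −0.55 to −0.45), short of the 1.5-fold limit. Jun, the usual partner of Fos, was lower in niche cells at 141 CPM, against 224 CPM in distal cells (−0.67, −0.81 to −0.53). Fosb was lower too, at 64.3 CPM in niche cells and 98.3 CPM in distal cells (−0.61). The most abundant of the family, Junb, had 1255 CPM in niche cells and 1681 CPM in distal cells (−0.42, −0.47 to −0.37). Maff, a small Maf protein that lacks an activation domain, was the member above 0, at 27.3 CPM in niche cells and 25.6 CPM in distal cells, with an interval of −0.31 to 0.51.

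Among the 36 members, the other transcription factors included the lowest and the highest ratio of the class. Klf2, a factor that restrains inflammatory gene expression in myeloid cells, was lower at 59.6 CPM in niche cells, against 117 CPM in distal cells (−0.98, −1.17 to −0.77). Egr1 was lower at 59.1 CPM in niche cells, against 104 CPM in distal cells (−0.82, −1.02 to −0.60). Klf4, which is needed for monocyte differentiation, was lower at 62.8 CPM in niche cells and 99.2 CPM in distal cells (−0.66). Against this, the family members Egr2 and Egr3 were higher in the niche, on few counts. Egr2 had 276 UMIs in niche cells and 17 in distal cells, or 12.96 and 7.77 CPM (0.70, 0.03 to 1.54). Egr3 had 46 UMIs in niche cells and 0 in distal cells, which is at least 1.57-fold higher when set against a floor of 3 UMIs in the distal class. The orphan nuclear receptors Nr4a1, Nr4a2 and Nr4a3 had ratios of −0.41, −0.17 and −0.41 and none was called.

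Among feedback genes, 7 of 8 lay below 0. Dusp1, which dephosphorylates stress-activated MAP kinases, was called lower at 322 CPM in niche cells, against 537 CPM in distal cells (−0.74, −0.83 to −0.65). The anti-proliferative gene Btg2 had 461 CPM in niche cells and 680 CPM in distal cells (−0.56, −0.64 to −0.48), and Zfp36 had 457 CPM in niche cells and 565 CPM in distal cells (−0.31), neither past 1.5-fold. Ier3, an apoptosis-regulating gene, stood on the other side with 202 CPM in niche cells and 177 CPM in distal cells (0.19, 0.04 to 0.34).

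The heat shock members did not share a direction. The inducible Hsp70 genes Hspa1a and Hspa1b were lower, Hspa1a at 24.5 CPM in niche cells and 36.6 CPM in distal cells (−0.59, −0.92 to −0.22) and Hspa1b at 23.6 CPM in niche cells and 40.7 CPM in distal cells (−0.79, −1.11 to −0.44). Hspd1, the mitochondrial chaperonin Hsp60, was higher at 220 CPM in niche cells, against 137 CPM in distal cells (0.68, 0.51 to 0.85). Its neighbour and partner Hspe1 was at 375 CPM in both (interval −0.11 to 0.10). Hsph1, a nucleotide exchange factor for Hsp70, was higher at 22.1 CPM in niche cells and 14.2 CPM in distal cells (0.62, 0.12 to 1.22). The constitutive genes Hsp90ab1 (1892 CPM in niche cells, 1529 CPM in distal cells, 0.31) and Hspa8 (1875 CPM in niche cells, 2337 CPM in distal cells, −0.32) moved by less than 1.5-fold in opposite directions.

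The UMIs of the inducible Hsp70 genes sat in few cells, so that counting intervals understate how far their sums could move. In the niche, 175 of 1720 monocyte/macrophage-like cells had a UMI of Hspa1a and the 10 highest cells held 32.4% of its 522 UMIs. In the distal library 30 of 280 cells had one and the 10 highest held 72.5% of its 80 UMIs. For Fos the 10 highest cells held 2.45% of UMIs in the niche and 12.2% in the distal library. The call of Hspa1a ended under 11 of 17 processing alternatives, among them CPM over shared genes (−0.58) and Leiden resolution 0.5 (−0.37). That of Hspa1b ended when each cell had equal weight (−0.38) and in cluster 2 alone (−0.40).

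Depth and make-up of the class also differed between the libraries. Median UMIs per cell were 11540 in niche and 7323 in distal cells, and median mitochondrial shares were 2.81% and 2.87%. Of the other cells that could lend RNA, neutrophil and B cell markers are given here. Alveolar macrophage-like cells were 31.6% of distal and 0.325% of niche cells, and the part of their RNA was not tested. The 10 neutrophil markers summed to 87.4 CPM in niche cells (0 of 10 at 0) and 121 CPM in distal cells (2 of 10 at 0), and the 10 B cell markers to 80.3 CPM in niche cells (0 of 10 at 0) and 120 CPM in distal cells (1 of 10 at 0). The 9 classical monocyte markers summed to 2137 CPM in niche cells and 3414 CPM in distal cells, and the 11 interstitial macrophage markers to 10230 CPM in niche cells and 8791 CPM in distal cells. The part of these shifts in the members' ratios was not tested.

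The class comprised 3 clusters, and the size of the difference varied among them. Cluster 1, led by Ccl8, Ms4a7, Vcam1 and C1q genes, held 33.1% of the niche class and 50.7% of the distal class. There the median of 25 immediate early members was −0.75, with 22 below 0, Fos was at 1020 CPM in niche cells and 1777 CPM in distal cells (−0.80), and Dusp1 at 289 CPM in niche cells and 597 CPM in distal cells (−1.05). In cluster 3, led by Ltb4r1, Tgm2 and Ch25h, the median was −0.47, with 23 of 25 below 0. In cluster 2, led by the interferon-induced Ly6i, Rsad2 and Ifit genes, it was −0.24, with 19 of 25 below 0. Here Egr1 had 66.2 CPM in niche cells and 43.5 CPM in distal cells (0.58, not past 1.5-fold), and Fosb was at 0.12. Hspd1 lay above 0 in all 3 clusters, at 0.70, 0.85 and 0.50 in clusters 1, 2 and 3. The median heat shock ratio stayed between −0.004 and 0.04 in the 3 clusters.

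Genes of the same 2 families outside the 36 gave a like split. Of 35 further immediate early genes 30 were measured, 24 lay below 0 and their median was −0.23. Of these 5 were called lower, against 4.91% of all genes, and 1 higher, against 4.1%. The leading ones were Srf (7.42 CPM in niche cells, 15.1 CPM in distal cells, −1.04), which encodes serum response factor, Ier5l (−0.91) and Zfp36l1 (−0.68). The single gene called higher was Klf10 (25.5 CPM in niche cells, 15.1 CPM in distal cells, 0.74), a factor induced by transforming growth factor beta. Of 37 further heat shock and chaperone genes 36 were measured, with a median of 0.12 and 11 below 0. None was called higher, and 1, the Hsp90 cochaperone Ahsa1, was called lower (86.1 CPM in niche cells, 129 CPM in distal cells, −0.59).

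**Figure D1:**
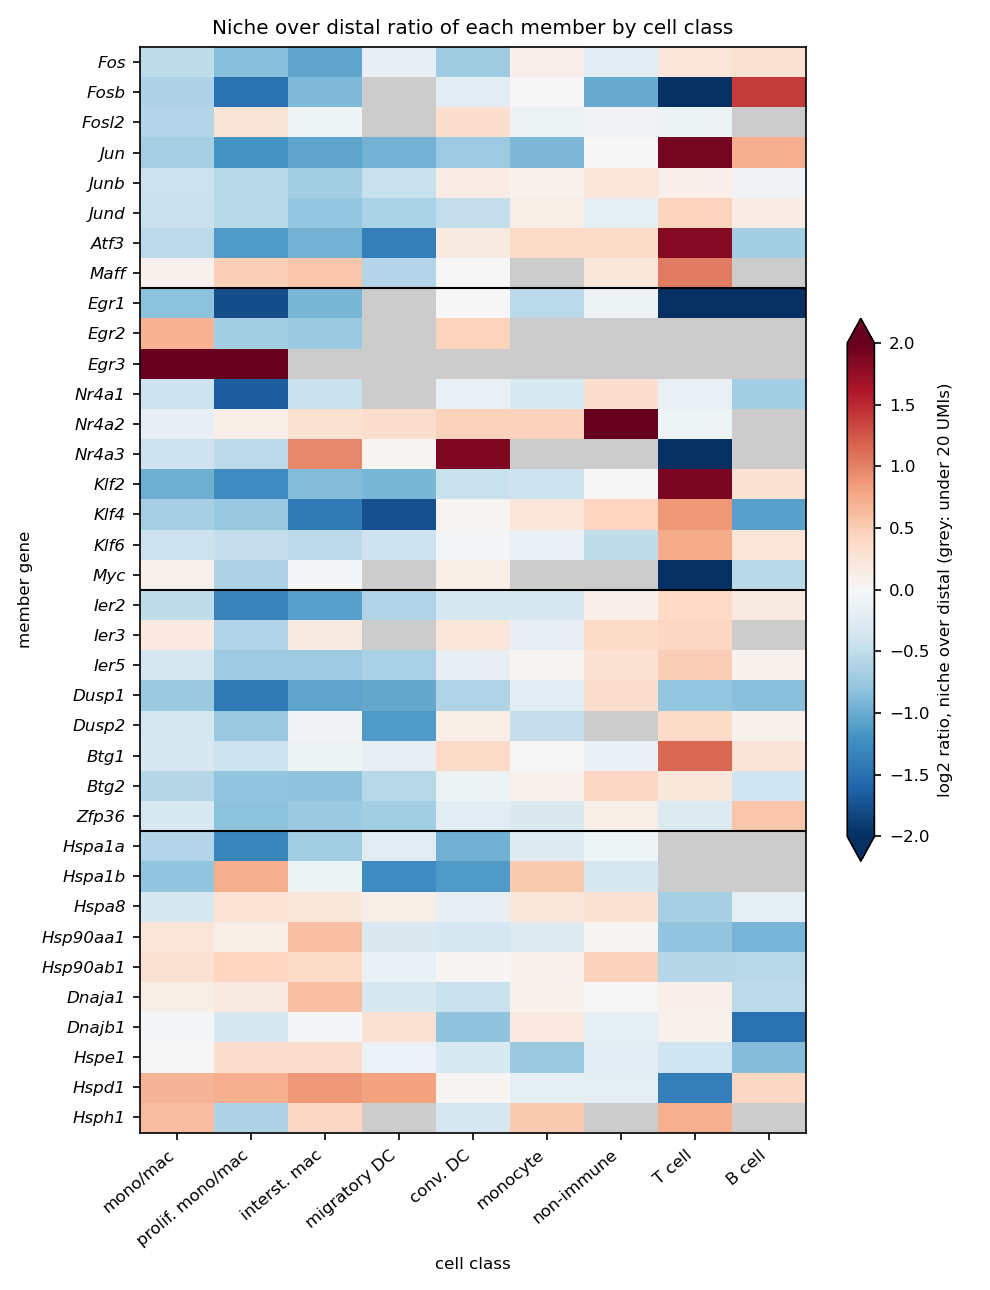
Log2 niche over distal ratio of the 36 members (rows, grouped from top to bottom as AP-1 family, other transcription factors, feedback genes and heat shock genes) in the 9 compared cell classes (columns). Blue marks lower and red higher levels in the niche, colours stop at 2 in either direction, grey marks fewer than 20 UMIs, and the darkest cells of T and B cells and of Egr3 rest on libraries with 0 UMIs. The upper 3 blocks are mostly blue in the first 4 columns and mixed in the others, and Hspd1 is red in the same 4 columns.

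The immediate early members were lower by more in interstitial macrophage-like cells and in proliferating monocyte/macrophage-like cells. In 129 niche and 134 distal interstitial macrophage-like cells the median of 25 immediate early members was −0.74, with 21 below 0, against 0.06 for all 8012 genes measured, of which 45.2% lay below 0. Called lower were 14 immediate early members and Hspa1a, against 6.75% of all genes. Fos was at 1485 CPM in niche cells, against 3086 CPM in distal cells (−1.05, −1.13 to −0.98). Dusp1 was at 606 CPM in niche cells, against 1262 CPM in distal cells (−1.06), and Ier2, a nuclear immediate early protein, at 510 CPM in niche cells and 1088 CPM in distal cells (−1.09). Klf4 had the lowest ratio of the class, with 55.2 CPM in niche cells and 147 CPM in distal cells (−1.41, −1.80 to −1.03). Further immediate early genes, outside the members, went both ways. Sgk1 (1.74, 1.32 to 2.20) and Plk2 (1.03) were called higher, against 9.37% of all genes. Mafk (−1.09), Zfp36l2 (−0.91), Gadd45g (−0.79), Ppp1r15a (−0.75), Rhob (−0.65) and Trib1 (−0.61) were called lower, against 6.75%.

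Heat shock members went the other way in interstitial macrophage-like cells. Their median was 0.36, with 7 of 10 above 0. Called higher were Hspd1 (316 CPM in niche cells, 172 CPM in distal cells, 0.87), Hsp90aa1, the stress-inducible Hsp90 (458 CPM in niche cells, 301 CPM in distal cells, 0.60), and Dnaja1, an Hsp40 cochaperone (348 CPM in niche cells, 229 CPM in distal cells, 0.60), against 9.37% of all genes. Among 34 further chaperone genes measured 29 lay above 0, with a median of 0.31. Of them 7 were called higher, against 9.37% of all genes, and 2 lower, against 6.75%. Dnaja2 had the largest ratio of the 7 (1.10). The 7 included Cct2 (0.83), Cct3 (0.87) and Cct8 (0.84), subunits of the cytosolic chaperonin, which were singled out after their values were seen. The other listed subunits, Cct4 (0.15), Cct5 (0.41), Cct7 (0.24) and Tcp1 (0.48), were not called. Median depth was 13149 UMIs in niche and 5767.5 UMIs in distal cells of the class, a larger gap than in monocyte/macrophage-like cells, and proliferation markers summed to 303 CPM in niche cells and 155 CPM in distal cells. Alveolar macrophage markers summed to 15.5 CPM in niche cells and 187 CPM in distal cells, and stromal markers to 30.4 CPM in niche cells and 113 CPM in distal cells. The part of depth and of these cells in the ratios was not tested.

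In proliferating monocyte/macrophage-like cells, 256 in the niche and 40 in the distal library, the 26 immediate early members had a median of −0.74, with 22 below 0, against −0.03 for all 9400 genes measured. Called lower were 15 immediate early members and Hspa1a, against 5.46% of all genes. Egr1 was at 112 CPM in niche cells, against 381 CPM in distal cells (−1.77, −1.995 to −1.54). Nr4a1, an orphan nuclear receptor, was at 56.9 CPM in niche cells, against 177 CPM in distal cells (−1.64), and Fosb at 50.2 CPM in niche cells, against 140 CPM in distal cells (−1.49). All 8 feedback genes lay below 0 and 7 of them were called lower. Hspd1 was called higher, at 358 CPM in niche cells and 215 CPM in distal cells (0.73, 0.47 to 1.01), against 4.22% of all genes. Proliferation markers summed to 2431 CPM in niche cells and 3705 CPM in distal cells, and B cell markers to 223 CPM in niche cells and 612 CPM in distal cells. Their part in the ratios was not tested.

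In migratory dendritic-like cells, 58 in the niche and 47 in the distal library, 16 of 18 measured immediate early members lay below 0, with a median of −0.62 against 0.04 for all 4256 genes measured. Called lower were 8 of them and Hspa1b, against 4.3% of all genes. Atf3, a stress-induced repressor of the AP-1 family, was at 71.0 CPM in niche cells, against 185 CPM in distal cells (−1.37), and Dusp2, a nuclear MAP kinase phosphatase, at 116 CPM in niche cells, against 256 CPM in distal cells (−1.14). Nr4a3, which marks these cells, was at 254 CPM in niche cells and 247 CPM in distal cells (interval −0.37 to 0.46). The 10 neutrophil markers summed to 52.3 CPM in niche cells (5 of 10 at 0) and 2438 CPM in distal cells (2 of 10 at 0). Neutrophil-like cells had the highest distal level of many immediate early members, and the part of that RNA in these ratios was not tested.

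In 4 other classes the immediate early median was less than 0.2 from that of all genes on the log2 scale. It was −0.01 in conventional dendritic-like cells, −0.10 in monocyte-like cells, 0.07 in B cell-like cells and 0.12 in the non-immune cluster, where it was 0.11 for all genes. In monocyte-like cells, 39 in the niche and 260 in the distal library, Fos was at 1677 CPM in niche cells and 1569 CPM in distal cells (interval −0.08 to 0.26), and Jun (−0.90) and Hspe1 (−0.73) were called lower, against 4.87% of all genes. In conventional dendritic-like cells, 42 in the niche and 157 in the distal library, 6 members were called lower, against 6.22% of all genes. Fos was among them at 858 CPM in niche cells and 1399 CPM in distal cells (−0.70). In the same cells Nr4a3 was called higher, at 166 CPM in niche cells and 45.2 CPM in distal cells (1.87, 1.37 to 2.37), against 5.21% of all genes. Migratory dendritic markers summed to 1524 CPM in niche cells and 613 CPM in distal cells of that class, and their part in the Nr4a3 ratio was not tested. Conventional dendritic-like cells also had 8 of 10 heat shock members below 0, with a median of −0.34, and Hspa1a (−0.96), Hspa1b (−1.13) and Dnajb1 (−0.81) were called lower.

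**Figure D2:**
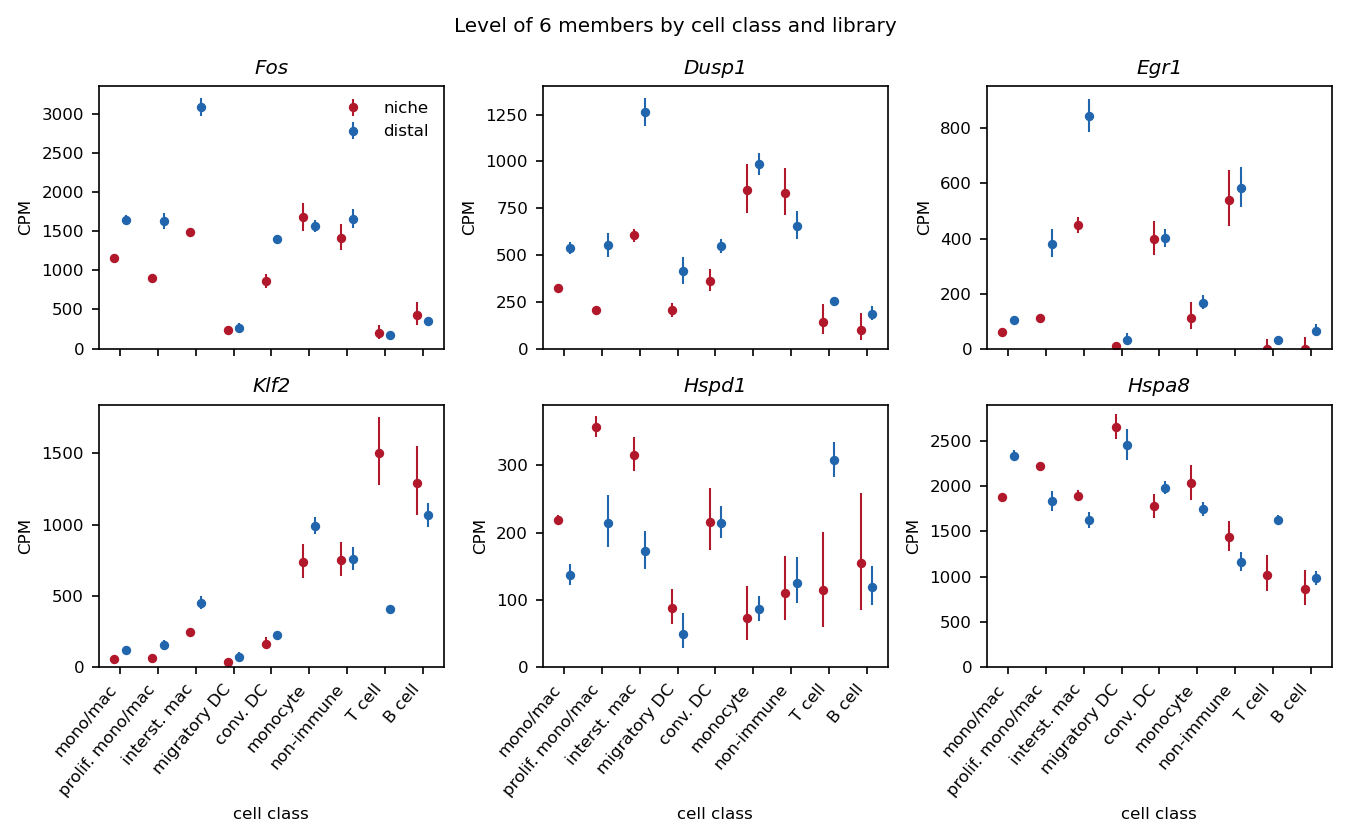
Level of 6 members in CPM (y axes start at 0) in the niche library (red, left of each pair) and the distal library (blue, right) over the 9 compared cell classes, with exact Poisson 95% intervals that cover counting error only. Fos, Dusp1 and Egr1 are highest in distal interstitial macrophage-like cells among these classes, Klf2 in niche T cell-like cells is at 1502 CPM against 408 CPM in distal ones, and Hspd1 is higher in the niche in the 3 macrophage classes.

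T cell-like cells, 36 in the niche and 368 in the distal library, showed differences in the opposite direction for the immediate early members. Their median was 0.31, with 15 of 24 above 0, against −0.10 for all 6875 genes measured. Called higher were Jun, Atf3, Klf2, Klf6 and Btg1, against 3.65% of all genes, and called lower were Dusp1, Hspa8, Hsp90aa1 and Hspd1, against 7.27%. Klf2, which keeps resting T cells in circulation, was at 1502 CPM in niche cells, against 408 CPM in distal cells (1.88, 1.62 to 2.13). Btg1, an anti-proliferative gene of quiescent T cells, was at 2229 CPM in niche cells and 1010 CPM in distal cells (1.15, 0.94 to 1.34). Hspd1 was at 115 CPM in niche cells, against 308 CPM in distal cells (−1.37, −2.39 to −0.61).

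The T cells of the 2 libraries came largely from different clusters. Of the niche T cells 75% lay in cluster 15, led by Lef1, Dapl1 and Tcf7, and of the distal T cells 71.7% lay in cluster 8, led by Cd3g, Nkg7 and Gzmb. Proliferation markers summed to 469 CPM in niche T cells and 2257 CPM in distal T cells. Within cluster 15 alone, with 27 niche and 104 distal cells, Klf2 had a ratio of 0.48, Klf6 of 0.40, Btg1 of 0.09, Dusp1 of −0.25, Hspa8 of −0.14, Hsp90aa1 of −0.03 and Hspd1 of −0.53, and none of these was called. The interval of Klf2, 0.19 to 0.76, left out 0, but its ratio was not past 1.5-fold. Jun remained called at 1.43, with an interval of 0.36 to 2.44, on 15 niche and 21 distal UMIs. Of all 1844 genes measured in that cluster 2.82% were called higher. Dusp2 also passed the call rule there (1.37, 0.30 to 2.37), on 15 niche and 22 distal UMIs. Atf3 had 2 niche and 1 distal UMIs in that cluster and was not measured. The median of the 14 immediate early members measured there was 0.15. Cluster 8 held 9 niche cells and gave no value of its own.

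B cell-like cells, 38 in the niche and 201 in the distal library, had 6 of 7 measured heat shock members below 0, with a median of −0.55 against −0.11 for all 3710 genes measured. Called lower were 2 of these, Hsp90aa1 and Hspe1, and the immediate early gene Egr1, against 4.04% of all genes. Hsp90aa1 was at 243 CPM in niche cells and 471 CPM in distal cells (−0.92, −1.65 to −0.33), and Hspe1 at 188 CPM in niche cells and 354 CPM in distal cells (−0.87). Fosb was called higher on 11 niche and 28 distal UMIs (1.39, 0.20 to 2.40), against 2.08% of all genes. Egr1 had 0 niche and 38 distal UMIs, which is at least 1.95-fold lower against a floor of 3 UMIs in the niche class. Plasma cell markers summed to 24370 CPM in niche cells and 7065 CPM in distal cells, and their part was not tested.

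Across the 9 classes the members were sorted by a fixed rule into those shifted alike and those tied to 1 class. A member counted as shifted alike where its ratio had 1 sign in every class in which it was measured (at least 4) and its interval left out 0 in at least 50% of them. Shifted alike towards lower levels were 2 members, Egr1 and Hspa1a, against 0.95% of 7577 genes. Egr1 was below 0 in all 8 classes where it was measured, from −0.001 in conventional dendritic-like cells to B cell-like cells with 0 niche UMIs, with a median of −0.86 and 4 intervals below 0. Hspa1a was below 0 in all 7 classes where it was measured, from −0.08 in the non-immune cluster to −1.31 in proliferating monocyte/macrophage-like cells, with a median of −0.59 and 4 intervals below 0. Neither gene kept this place under all alternatives. Egr1 lost it with CPM over shared genes, with centred ratios, with at least 1000 UMIs per cell, with the members kept among the variable genes, with a minimum of 50 UMIs per gene and with at most 5% mitochondrial UMIs. Hspa1a lost it without the highest doublet scores, at Leiden resolution 2.0, after thinning and with at most 5% mitochondrial UMIs. Shifted alike towards higher levels were 0 members, against 1.48% of genes.

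Dusp1 came closest without meeting the rule. It was below 0 in 8 of 9 classes, with 6 intervals below 0. The exception was the non-immune cluster at 833 CPM in niche cells and 656 CPM in distal cells (0.35, 0.07 to 0.62). At Leiden resolution 2.0 non-immune cells fell into endothelial (26 niche, 85 distal), stromal (15 niche, 20 distal) and epithelial (1 niche, 19 distal) clusters. The make-up of these cells thus differed between the libraries, and its part in their ratios was not tested. Jun, Klf2, Klf6, Zfp36 and Hspe1 were below 0 in 7 of 9 classes, and Fosb and Nr4a1 in 7 of 8. Called in exactly 1 class, with a median within 1.5-fold over the others, were 11 members, against 27.4% of genes. They were Klf6, Btg1 and Hspa8 in T cell-like cells, Nr4a1 and Ier3 in proliferating monocyte/macrophage-like cells, Junb and Dnaja1 in interstitial macrophage-like cells, Nr4a3 and Dnajb1 in conventional dendritic-like cells, Nr4a2 in the non-immune cluster and Hsph1 in monocyte/macrophage-like cells. The call of Nr4a2 rested on 15 niche and 7 distal UMIs. Of the other members 22 were mixed, and Egr3 was measured in too few classes. A share of 11 in 36 lies near that of all genes, and the sorting depended on the processing. With cells of 4000 or more UMIs, which changed the cells and left 5 of the 9 classes, 11 members were shifted alike towards lower levels, none of them Egr1 or Hspa1a.

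In niche monocyte/macrophage-like cells the 2 families did not go together between cells high in Fos and cells without it. Cells of all clusters of the class were pooled for this, and the part of the clusters was not tested. Cells were thinned to 2000 UMIs each, and the other members were compared between cells with 3 or more Fos UMIs and cells with none. In niche monocyte/macrophage-like cells, 678 with 3 or more and 329 with none, 23 of 24 measured immediate early members were above 0, with a median log2 ratio of 0.85. Of the 10 heat shock members 2 were above 0, with a median of −0.22, 0 intervals above 0 and 4 below. In the distal library, 151 and 37 cells, 18 of 20 immediate early members were above 0, with a median of 1.22. Of 6 heat shock members measured there 1 was above 0, with a median of −0.24, but all their intervals held 0. Heat shock members did not lie below 0 in every class. In niche proliferating monocyte/macrophage-like cells 3 of 6 were above 0, with a median of 0.18, 2 intervals above 0 and 0 below. In distal monocyte-like cells 4 of 7 were above 0, with a median of 0.13, 0 intervals above 0 and 2 below.

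Members differed in how closely they went with Fos. In niche monocyte/macrophage-like cells Klf4 was at 92.9 CPM where Fos was high and 24.3 CPM where Fos was at 0 (log2 ratio 1.90), Fosb at 85.5 CPM and 22.8 CPM in the same order (1.87), and Dusp1 at 498 CPM where Fos was high and 195 CPM where it was at 0 (1.35, 1.08 to 1.64). Jun (0.20), Jund (0.16), Klf6 (0.20) and Nr4a2 (0.04) had intervals that held 0. Hspa1b was lower where Fos was high, at 24.3 CPM, against 50.2 CPM where it was at 0 (−1.04, −1.78 to −0.30). Hspe1 (−0.36) and Hspd1 (−0.41) had intervals below 0 as well. In alveolar macrophage-like cells, which were compared in the distal library alone, 21 of 21 immediate early members were above 0, with a median of 0.75, and 3 of 8 heat shock members, with a median of −0.05.

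**Figure D3:**
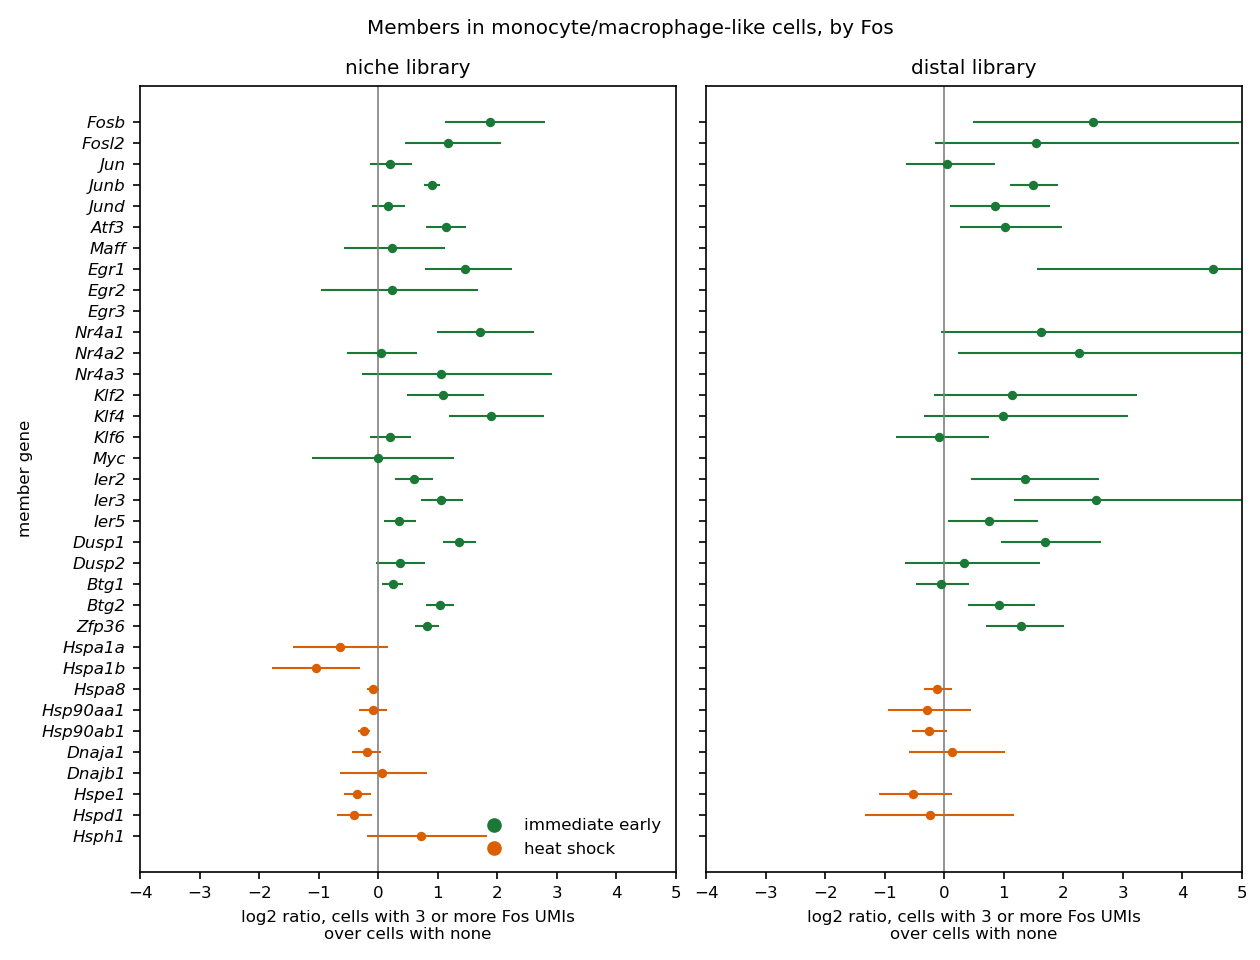
Log2 ratio of each member other than Fos between monocyte/macrophage-like cells with 3 or more Fos UMIs and those with none, after thinning to 2000 UMIs per cell, in the niche library (left) and the distal library (right). Points are ratios, bars are 95% counting intervals that are cut at the axis limits, and members with fewer than 20 UMIs are left out. Immediate early members (green) lie mostly right of 0 and heat shock members (orange) mostly left of or at 0 in both libraries.

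Per cell, niche macrophages held fewer immediate early UMIs at the 10th percentile, the median and the 90th percentile, with low counts at the 10th. Of 2000 UMIs, a niche interstitial macrophage-like cell held a median of 20 immediate early UMIs (10th to 90th percentile 5 to 42), against 37 (7 to 66) in distal cells. The medians were 13 (5 to 23) in niche and 16.5 (6 to 29) in distal monocyte/macrophage-like cells, and 8.5 (3 to 18) in niche and 16.5 (4 to 38) in distal proliferating monocyte/macrophage-like cells. In monocyte-like cells they were 30 (16 to 44) in niche and 27 (16 to 44) in distal cells. Heat shock UMIs had medians of 10 in niche and 7 in distal interstitial macrophage-like cells and of 9 in both libraries in monocyte/macrophage-like cells. These values leave out cells with fewer than 2000 UMIs, which were 47 niche and 6 distal monocyte/macrophage-like cells.

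Levels of single members differed between cell types. In the distal library neutrophil-like cells, 365 cells with a median of 1074 UMIs, had the highest level of Fos (4419 CPM), Junb (7536 CPM), Dusp1 (4049 CPM), Btg1 (4565 CPM), Btg2 (4093 CPM), Klf2 (2343 CPM) and Egr1 (1244 CPM) among 15 cell classes. In the niche, 29 neutrophil-like cells had 4951 CPM of Fos, 4923 CPM of Dusp1 and 6713 CPM of Junb, and were too few to be compared as a class. Heat shock members were not all low in neutrophil-like cells. In the distal library these had 466 CPM of Hspa8 and 227 CPM of Hsp90ab1, where T cell-like cells had 1626 CPM and 1929 CPM. Dnaja1 was at 368 CPM in distal neutrophil-like cells, 423 CPM in T cell-like cells and 214 CPM in B cell-like cells. Dnajb1 was at 64.5, 58.0 and 45.9 CPM in the same order.

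Several transcription factors kept their place in the order of classes in both libraries. Nr4a1 was highest in monocyte-like cells, at 741 CPM in the niche and 915 CPM in the distal library, and the next niche class was conventional dendritic-like cells at 236 CPM. Klf4 was highest in the same cells, at 488 CPM in the niche and 415 CPM in the distal library. Klf4 in the non-immune cluster came second, at 364 CPM in the niche and 270 CPM in the distal library, and the 2 niche intervals overlapped, from 397 to 593 CPM and from 287 to 456 CPM. Nr4a3 and Klf6 were highest in migratory dendritic-like cells, Klf6 at 663 CPM in the niche and 888 CPM in the distal library. Jun was highest in the non-immune cluster, at 1806 CPM in the niche and 1816 CPM in the distal library, where interstitial macrophage-like cells came second at 478 CPM in the niche and 992 CPM in the distal library. Egr2 was highest in distal alveolar macrophage-like cells at 85.8 CPM, followed by NK cell-like cells at 67.0 CPM. Among heat shock members, Hspa8 was highest in migratory dendritic-like cells in both libraries, at 2655 CPM in the niche and 2459 CPM in the distal library. Hsp90aa1, Hsp90ab1, Hspd1 and Hspe1 were highest in T cell-like cells of the distal library.

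**Figure D4:**
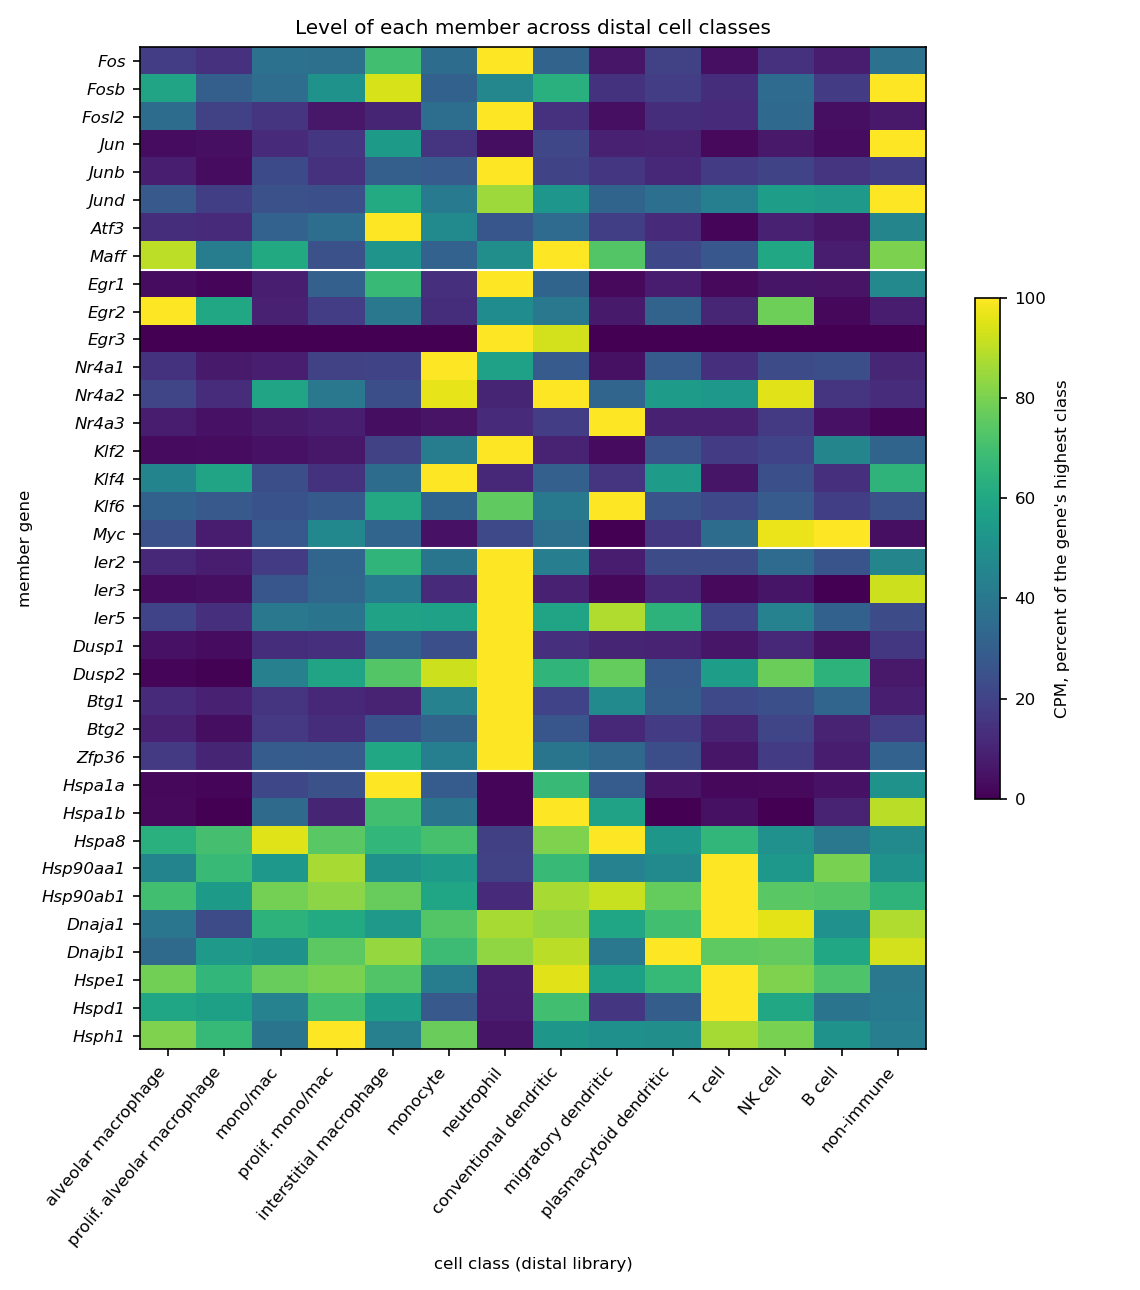
Level of each member in the distal library over 14 named cell classes, as a percentage of the gene's highest class (yellow is 100), with members grouped as in the ratio plot. Most feedback genes and Fos, Junb, Klf2 and Egr1 peak in neutrophil-like cells, Nr4a1 and Klf4 in monocyte-like cells, Nr4a3 and Klf6 in migratory dendritic-like cells and most constitutive chaperones in T cell-like cells.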

How the data were processed

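Groups came from the sample titles. The deposited values are raw UMI counts of each gene in each barcode. Per the file headers, software version 6.0.0 wrote the niche matrix (cellranger) and 3.0.2 the distal one. Bowtie2, RSEM, Seurat 4.1.1 and Cell Ranger 3.02 are named in the submitters' processing notes, without roles, beside builds mm10 and GRCm38. Version and gene list therefore cannot be told apart from the group. Genes were joined by Ensembl identifier, and coordinates come from the GENCODE annotation of GRCm38.

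A barcode was kept with 200 or more genes and no more than 10% mitochondrial UMIs, which removed 161 niche and 405 distal barcodes for mitochondrial share. Scrublet in scanpy 1.11.5, with an expected rate of 0.03, called 1 niche and 4 distal doublets, too few to have worked. They were removed and clusters with markers of 2 lineages were kept out. Both libraries were clustered together on 2000 variable genes without the members and the 2 further lists, by Leiden at resolution 1.0 on 20 neighbours over 30 principal components (scikit-learn 1.9.0, igraph 0.11.9, leidenalg 0.10.2). A class name needed 0.75 of its markers, or 0.4 of the interstitial macrophage or 0.5 of the classical monocyte markers for monocyte/macrophage-like, with thresholds set after clusters had been seen. Left out as mixed, unnamed or low in UMIs were 274, 83 and 304 niche and 220, 24 and 6 distal cells.

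Counts were summed per class, 0.5 UMI was added to each sum of a ratio, and intervals were exact conditional binomial or Poisson (95%, counting error only). Thinning kept 2000 UMIs per cell. The ratio and sorting steps were tested on simulated data. The members and lists were chosen with earlier results of these data known. All members are accounted for, and from each further list up to 3 genes called in each direction in monocyte/macrophage-like cells with the largest ratios are named. The alternatives covered scaling, cell filters, thinning, equal weight of cells, doublets, clustering, minimum counts and single clusters. Scripts ran under Python 3.11.15 with pandas 2.3.3, scipy 1.17.1, matplotlib 3.10.9 and numpy 2.4.6.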

Additional observations from a re-analysis of the deposited data

Results flagged for a closer look

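For 6 members an effect past 1.5-fold, with an interval that left out 0, pointed one way in 1 cell class and the other way in another. The difference between the classes was not tested, since each class had 1 niche and 1 distal library. The log2 ratio of Fosb was 1.39 in B cell-like cells, on 11 niche and 28 distal UMIs, and −1.49 in proliferating monocyte/macrophage-like cells. Jun was at 1.91 in T cell-like cells and −1.20 in proliferating monocyte/macrophage-like cells. Atf3 was at 1.84 in T cell-like cells, on 6 niche and 30 distal UMIs, and −1.37 in migratory dendritic-like cells. Klf2 was at 1.88 in T cell-like cells and −1.26 in proliferating monocyte/macrophage-like cells. Among heat shock members, Hsp90aa1 was at 0.60 in interstitial macrophage-like cells and −0.92 in B cell-like cells, and Hspd1 was at 0.87 in interstitial macrophage-like cells and −1.37 in T cell-like cells. Within T cell cluster 15 alone Jun was called at 1.43, on 15 niche and 21 distal UMIs, against 2.82% of all genes called higher. Klf2 was at 0.48 (interval 0.19 to 0.76, not past 1.5-fold) and Hspd1 at −0.53 (interval −2.01 to 0.56), and neither was called. Atf3 had 2 niche and 1 distal UMIs there and was not measured.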

How the results depend on the processing

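No paired analysis was possible because each group had 1 library and the labels give no replicate numbers. The direction of the immediate early median in monocyte/macrophage-like cells held under all 17 alternatives, from −0.75 in the largest cluster to −0.24 in cluster 2. The heat shock median was −0.072 with cells thinned to 2000 UMIs. Members called lower numbered 15 in the largest cluster (5.01% of all genes) and 1 in cluster 2 (4.31%). Members called higher numbered 1 after thinning (4.06%), 2 in the largest cluster (5.53%), 2 in cluster 2 (3.25%) and 0 in cluster 3 (2.94%). Reversed ratios were Hsph1 after thinning (−0.084), Fosb (0.12), Egr1 (0.58) and Egr2 (−0.070) in cluster 2, and Maff (−0.81) and Hsph1 (−0.0040) in cluster 3. Members shifted alike towards lower levels numbered 1 with CPM over shared genes, with ratios centred on the median of all genes, with at least 1000 UMIs per cell, without the highest doublet scores and with the members kept among the variable genes. They numbered 2 at Leiden resolution 2.0 (Egr1, Dusp1) and with 50 UMIs per gene (Hspa1a, Fosb), 7 with at most 5% mitochondrial UMIs, 6 after thinning, 4 at Leiden resolution 0.5, 11 with at least 4000 UMIs per cell and 0 where classes needed 50 cells, which left 2 classes and so could not meet the rule. Thinning (Hsp90ab1) and the 4000 UMI minimum (Hspd1) each gave 1 member shifted alike towards higher levels. Members past 1.5-fold in 1 class numbered 7 with centring, with the 5% mitochondrial limit and at resolution 0.5, 5 with members kept, 4 after thinning, 4 with 4000 UMIs and 0 with 50 cells. The 5% limit, thinning, resolution 0.5 and the 4000 UMI minimum left 6, 6, 6 and 5 classes. The 4000 UMI minimum and the runs on clusters 2 and 3 and on single T cell clusters were chosen after seeing the data. T cell cluster 8, with 9 niche cells, gave no value.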

Other observations

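A cluster with few UMIs, 304 niche and 6 distal cells with a median of 905 UMIs, belonged almost wholly to the niche library and had no marker of a named class among its 10 leading genes. It still held 0.455 of the interstitial macrophage markers, past the 0.4 set for monocyte/macrophage-like, and 0.333 of the classical monocyte markers. Hspa1a and Hspa1b were among those leading genes, although neither was used for clustering, so their values describe the cluster. Set against niche monocyte/macrophage-like cells, it had 8 of 10 heat shock members above 0, with a median log2 ratio of 0.66, and 20 of 26 immediate early members below 0, with a median of −0.41. The median of all 10722 genes was 0.12. Hspa1a was at 105 CPM in the cluster and 24.5 CPM in niche monocyte/macrophage-like cells, Hspd1 at 391 CPM and 220 CPM in the same order. Of the 44 Hspa1a UMIs of the cluster 32 lay in the 19 cells with 4000 or more UMIs. Among cells of 1000 to 4000 UMIs the order was the other way, with 16.9 CPM (interval 3.48 to 49.3, 3 UMIs) in 114 cells of the cluster and 122 CPM in 98 niche monocyte/macrophage-like cells. The mitochondrial share was 1.34% in the cluster and 2.81% in niche monocyte/macrophage-like cells.

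Within niche monocyte/macrophage-like cells, Hspa1a was at 122 CPM (interval 81.5 to 175) in 98 cells of 1000 to 4000 UMIs, 34.6 CPM in 530 cells of 4000 to 10000 UMIs and 20.8 CPM in 1079 cells above that. Fos was at 848, 1495 and 1091 CPM in the same 3 ranges. In distal monocyte/macrophage-like cells Hspa1a was at 37.8 CPM in 198 cells of 4000 to 10000 UMIs and 28.5 CPM in 59 cells above that. Fos was at 1843 and 1317 CPM in the same distal ranges. Egr1 was at 68.0 and 57.1 CPM in niche cells of these ranges and at 112 and 92.0 CPM in distal ones.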
